A study of Homo sapiens with 12 samples.

Results

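The 49 genes described here encode the clotting, complement and acute phase proteins, carriers and protease inhibitors that the liver releases into plasma. They were taken as a fixed list of names, with the fibrinogen chains, apolipoproteins and insulin-like growth factor binding proteins left out. Each gene was represented by the brightest of its probe sets that carry exactly 1 gene symbol, and all 49 were measured among 18404 genes in all. By role they comprise 7 carriers and transport proteins, 5 acute phase reactants, 12 complement genes, 10 coagulation and contact factors, 8 genes of anticoagulation and fibrinolysis, and 7 protease inhibitors and inter-alpha heavy chains.

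RNA came from tumour spheroids, aggregates of cells in suspension, of HepG2, a human hepatocellular carcinoma line. All spheroids were 10 days old and grown in stirred flasks, and RNA of 250 microdissected cells went through a kit amplification before hybridisation to Affymetrix arrays. There were 4 arrays of wild type cells, 4 of cells with HIF-1α knockdown and 4 with HIF-2α knockdown, each group from 4 spheroid experiments. The knockdown samples are labelled sh1alpha and sh2alpha. Not given in the sources used here are the knockdown sequences, the number of clones, any control construct in the wild type cells and the part of the spheroid taken. All values are the deposited log2 signals, and a difference of 1 on that scale is a doubling. Both comparisons with wild type use the same 4 wild type arrays.

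Most plasma proteins other than antibodies are made by hepatocytes. The coagulation factors are zymogens and cofactors that act in a cascade ending in thrombin and fibrin, and the complement components form a parallel protease cascade that ends in the membrane attack complex. Acute phase genes are switched on in hepatocytes by interleukin-6 through STAT3 and by interleukin-1 through NF-κB and C/EBP factors. Hypoxia-inducible factors bind DNA at a short core motif, and their subunits HIF-1α (gene HIF1A) and HIF-2α (gene EPAS1) are degraded when oxygen is plentiful.

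The targeted genes followed the labels. HIF1A read 10.74, 10.64, 10.79 and 10.62 on the wild type arrays against 9.25, 9.58, 9.38 and 9.64 with HIF-1α knockdown, and fell by 1.23 (SE 0.15, limma adjusted p = 0.00241). EPAS1 read 10.96, 10.83, 10.97 and 11.26 in wild type and 9.67, 10.02, 9.87 and 9.98 in HIF-2α knockdown, and fell by 1.12 (SE 0.09, limma adjusted p = 0.000206). Array medians lay between 7.29 and 7.41, but the upper ends of the arrays differed. The signal that 0.1% of probe sets exceeded was 13.80 to 14.23 for wild type but 13.32 to 13.65 for HIF-1α knockdown. In HIF-2α knockdown it was 13.50 and 13.52 on replicates 1 and 3, and 14.21 and 14.32 on replicates 2 and 4. The lower end was raised on replicate 4 of HIF-2α knockdown and replicates 1 and 2 of wild type, where 0.1% of probe sets lay below 6.33 to 6.35, against 6.11 to 6.23 on the other arrays. These 3 arrays are called the high-floor arrays below. Without them wild type keeps only replicates 3 and 4, and HIF-2α knockdown replicates 1 to 3. The count of genes with an adjusted p below 0.05 (limma) then went from 177 to 22 in HIF-1α knockdown against wild type. It went from 145 to 37 in HIF-2α knockdown against wild type and from 509 to 259 between the knockdowns. With fewer arrays a gene can stop passing for that reason alone, so such a loss does not show dependence on these 3 arrays. Of the hepatocyte and HepG2 markers, APOA2 averaged 13.64, APOB 13.70, AFP 12.98 and TF, the transferrin gene, 13.53. Of the 13 macrophage and leukocyte markers, LYZ averaged 13.19, CD68 10.02 and TYROBP 8.0, and the other 10 between 6.52 for PTPRC, near the floor, and 7.30 for CD14.

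Promoters were looked at because the members share a regulatory setting, liver expression. The list holds proteins that the liver releases, so motif shares unlike those of all promoters may follow from that choice alone. RefSeq's table of human promoters, on assembly GRCh38.p14, held 47 windows for 37 of the 49 members, and the 250 bases before each start site were searched on both strands. TTGCNNAA, a C/EBP motif, was found in 12 member windows (25.5%) against 9.1% of the 35116 windows in the table, and TTCNNNGAA, a STAT motif, in 9 (19.1%) against 6.6%. HNF4, a hepatocyte nuclear receptor, was searched as CAAAGTCCA or CAAAGGTCA, which occurred in 3 member windows (6.4%) against 0.7%. The HIF core, ACGTG or GCGTG, occurred in 12 member windows (25.5%) against 43.2% of all windows. These shares are descriptions of letters and not of binding, and some genes have more than 1 window. Below are 3 windows, each the 250 bases before the start, 5′ to 3′ on the strand of the gene, with matches to these motifs in capitals. F11, the gene called in both comparisons that involve HIF-2α knockdown, lies on the plus strand at chr4:186265939-186266188. HPX, called between the knockdowns, lies on the minus strand at chr11:6440988-6441237. ALB, which had the largest difference of any member in HIF-1α knockdown, lies on the plus strand at chr4:73404037-73404286.
F11: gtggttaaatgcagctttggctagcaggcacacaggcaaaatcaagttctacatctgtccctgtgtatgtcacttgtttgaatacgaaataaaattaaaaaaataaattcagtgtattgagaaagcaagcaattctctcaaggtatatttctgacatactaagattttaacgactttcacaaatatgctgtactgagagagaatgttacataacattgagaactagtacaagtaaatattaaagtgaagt
HPX: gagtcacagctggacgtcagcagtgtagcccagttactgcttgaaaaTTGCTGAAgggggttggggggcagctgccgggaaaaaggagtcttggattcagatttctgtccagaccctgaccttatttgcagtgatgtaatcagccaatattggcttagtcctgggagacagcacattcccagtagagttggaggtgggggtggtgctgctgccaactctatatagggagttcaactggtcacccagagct
ALB: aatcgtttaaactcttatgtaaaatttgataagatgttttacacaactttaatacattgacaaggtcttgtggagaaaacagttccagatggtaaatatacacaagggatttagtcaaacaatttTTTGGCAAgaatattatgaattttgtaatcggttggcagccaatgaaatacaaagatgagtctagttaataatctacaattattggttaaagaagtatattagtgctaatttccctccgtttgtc
The F11 window held none of the 4 motifs. The HPX window held TTGCTGAA, a C/EBP match, 203 to 196 bases before the start. The ALB window held TTTGGCAA, a C/EBP match on the opposite strand, 125 to 118 bases before the start. None of the 3 windows held the HIF core.

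Few of the 49 genes passed the test in any comparison. In HIF-1α knockdown against wild type, 1 of the 49 members rose, C1S, which is 2.04% of the list against 0.815% of all genes, and 0 fell, against 0.147% of all genes (limma). At an unadjusted p below 0.05, 6 members were higher, or 12.24%, against 10.3% of all genes, and 7 lower, or 14.29%, against 2.98%. In HIF-2α knockdown against wild type, 1 member rose, F11, against 0.478% of all genes, and 0 fell, against 0.310% (limma). At an unadjusted p below 0.05, 6 members were higher, or 12.24%, against 8.16% of all genes, and 2 lower, or 4.08%, against 3.85%. Between the knockdowns, HPX, C6 and F11 were higher in HIF-2α knockdown, 3 of 49 or 6.12% against 0.967% of all genes, and C1S was lower, 1 of 49 or 2.04% against 1.80%. At an unadjusted p below 0.05, 10 were higher, or 20.41%, against 5.19% of all genes, and 6 lower, or 12.24%, against 8.39%. The shares of single-gene calls in the comparisons with wild type thus rest on 1 member each.

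The median difference of the 49 members was -0.07 in HIF-1α knockdown against wild type, where the median over all genes was 0.00. In HIF-2α knockdown it was -0.02 against -0.01, and between the knockdowns 0.07 against -0.01. In HIF-1α knockdown, 31 members had a negative and 18 a positive difference, with a range from -0.74 for ALB to 0.61 for HP. In HIF-2α knockdown, 29 were negative and 20 positive, from -0.28 for TTR to 0.40 for F11. The members varied more between arrays of 1 group than the median over all genes. Their median within-group SD was 0.18, from 0.04 for C8B to 0.37 for TTR, against 0.10 for all genes. Their median standard error was accordingly 0.11 against 0.07. In HIF-1α knockdown against wild type it was 0.16 for ribosomal protein genes, 0.17 for hepatocyte and HepG2 markers and 0.12 for the fibrinogen chains. For the remaining gene lists read below it was 0.06 to 0.10. A spread above that of all genes was thus not particular to the members. In bulk RNA of this kind, fewer cells of a type and less RNA per cell cannot be told apart.

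**Figure D1:**
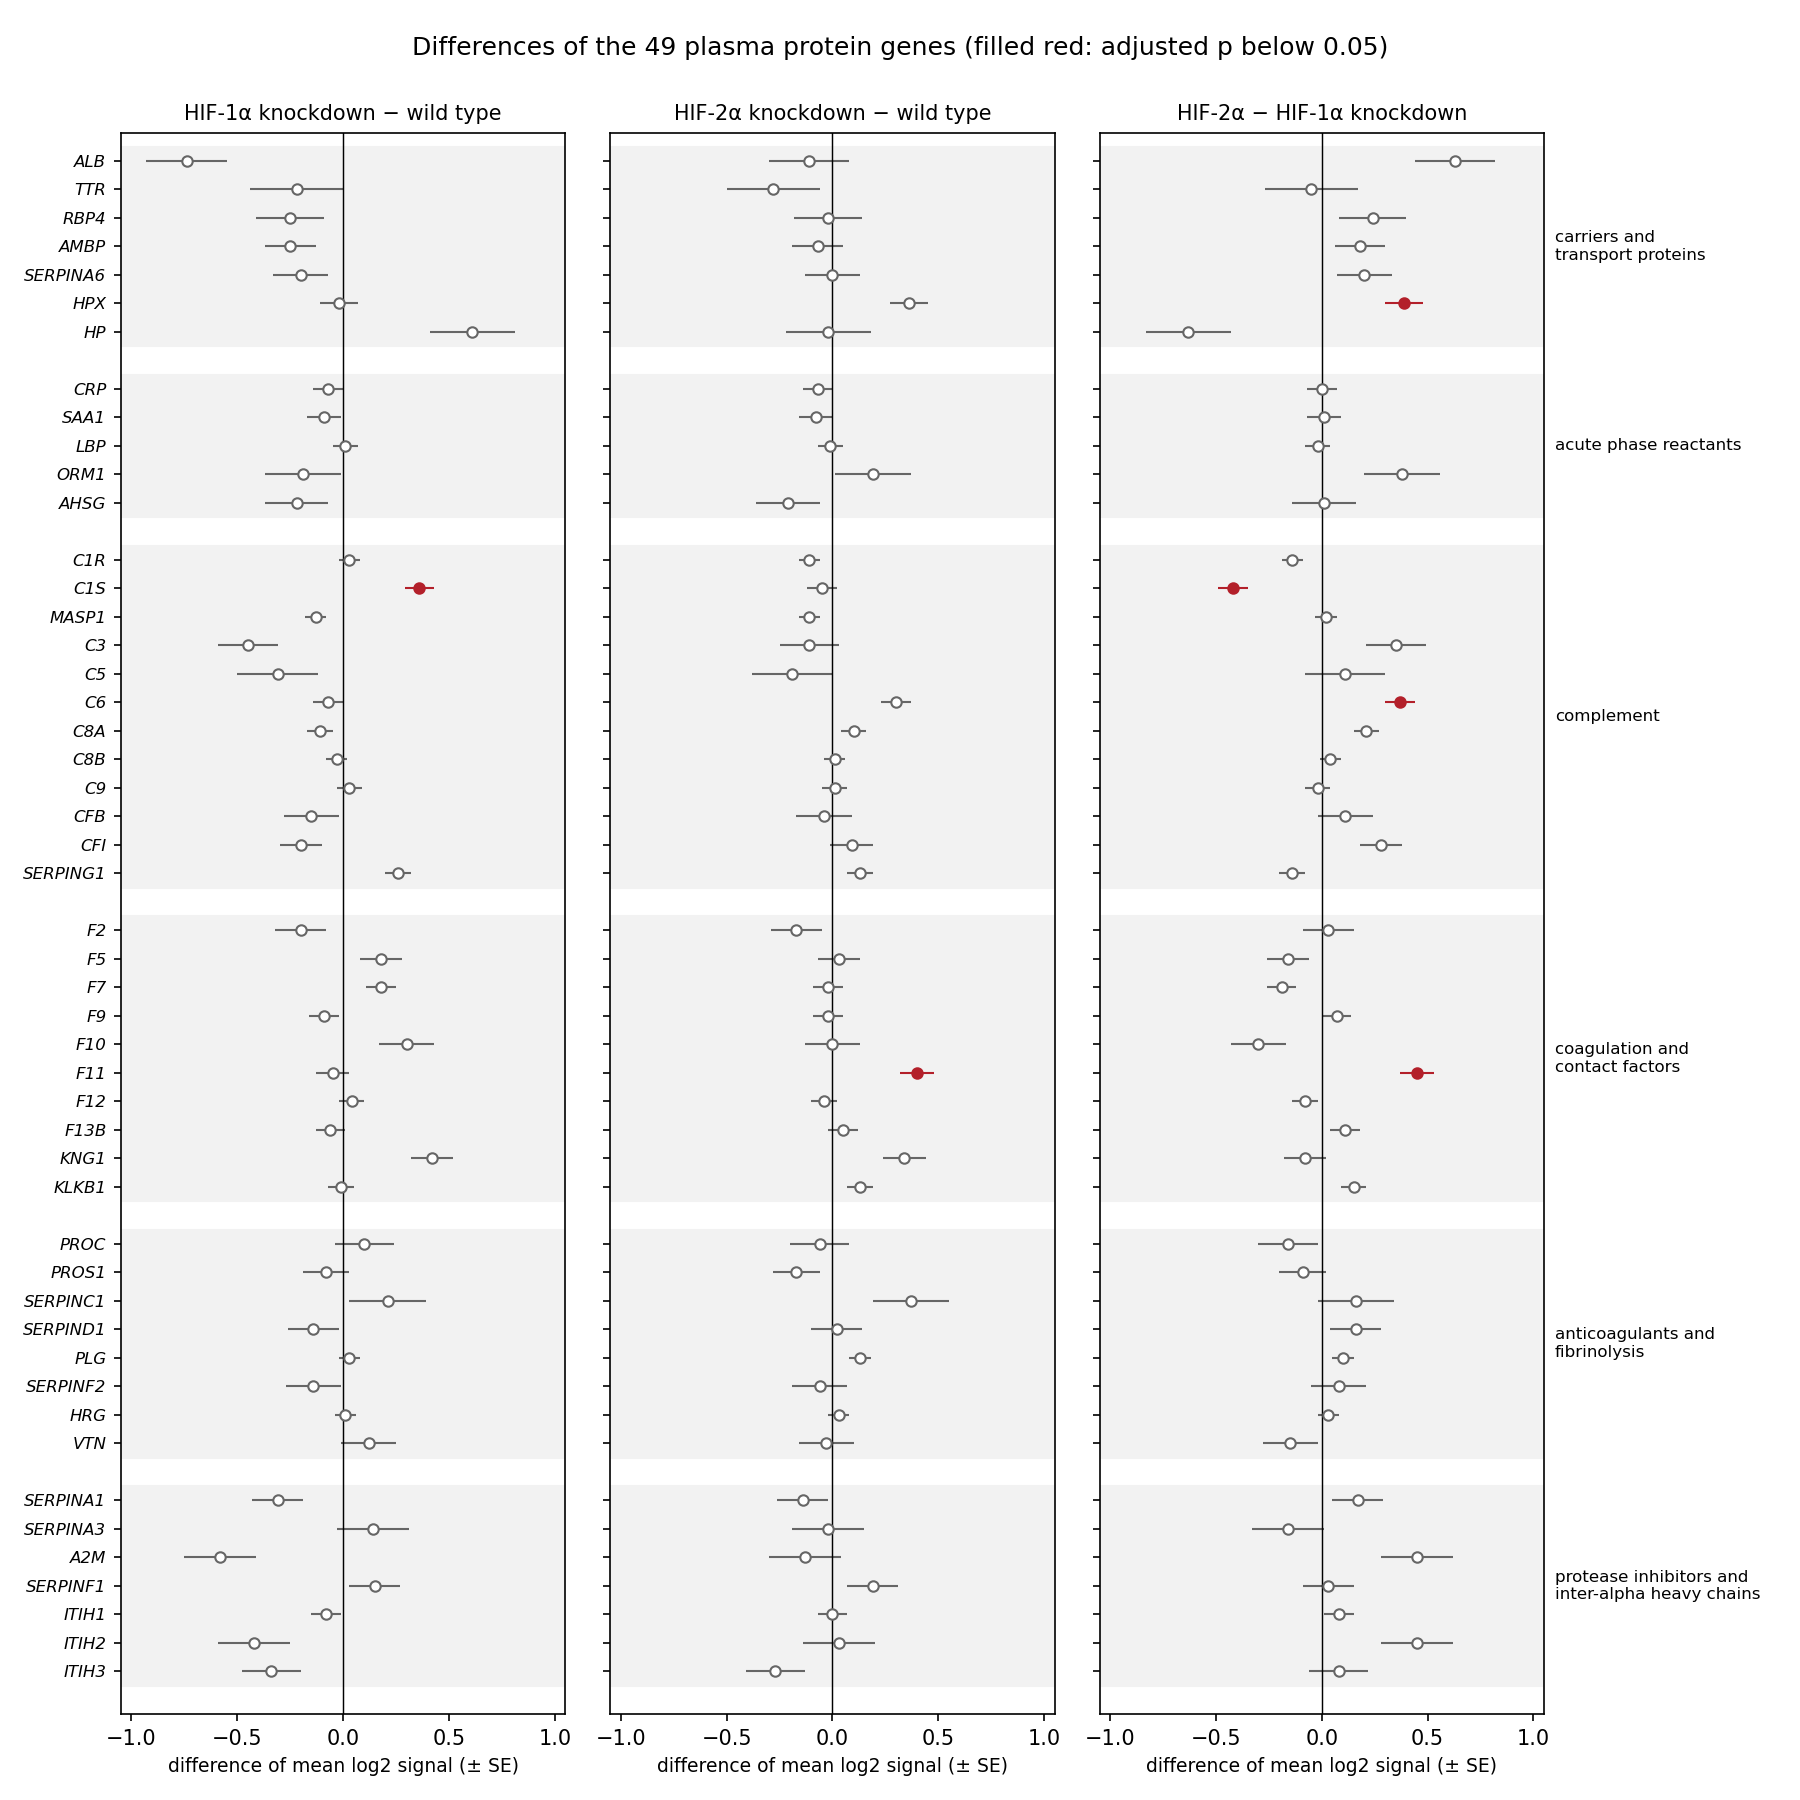
Difference of mean log2 signal ± SE for each of the 49 genes (rows, grouped by role) in the 3 comparisons, with genes called at an adjusted p below 0.05 filled red. C1S stands out in HIF-1α knockdown at 0.36, F11 in HIF-2α knockdown at 0.40, and HPX, C6, F11 and C1S between the knockdowns.

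Groups whose arrays did not overlap at all were counted next. In HIF-1α knockdown every array lay above every wild type array for C1S, SERPING1 and KNG1, 3 of 49 or 6.12% against 5.73% of all genes. Every array lay below wild type for ALB, C3, SERPINA1 and A2M, 4 of 49 or 8.16% against 2.11%. In HIF-2α knockdown, HPX, C6, SERPING1, F11 and PLG were above wild type on every array, 5 of 49 or 10.20% against 3.40% of all genes. C1R and MASP1 were below it, 2 of 49 or 4.08% against 1.91%. Between the knockdowns, ALB, HPX, C6, C8A, CFI and F11 were higher in HIF-2α knockdown on every array, 6 of 49 or 12.24% against 3.73%, and HP, C1R and C1S lower, 3 of 49 or 6.12% against 5.35%. These sets depended on the scaling. After quantile normalization, which gives every array 1 distribution of signal, 8 members lay above wild type on every array in HIF-1α knockdown, namely C1S, SERPING1 and KNG1 with RBP4, C9, F5, SERPIND1 and SERPINF1, 16.33% against 4.37% of all genes. Below wild type were 5, namely ALB and SERPINA1 with CFI, F2 and ITIH3, 10.20% against 4.68%, while C3 and A2M overlapped it. In HIF-2α knockdown HPX, C6, F11 and SERPINF1 were then above wild type, 8.16% against 2.67%, and C1R below it, 2.04% against 5.27%. Between the knockdowns the same 6 members were higher, 12.24% against 4.38%, and HP, C1S and AHSG lower, 6.12% against 6.76%.

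Among the complement genes, C1S and C6 were the 2 called. C1S encodes the protease of the first component that cleaves C4 and C2. It read 7.33, 7.27, 7.32 and 7.47 on the wild type arrays, 7.76, 7.84, 7.67 and 7.57 in HIF-1α knockdown, and 7.33, 7.34, 7.22 and 7.29 in HIF-2α knockdown. All 4 HIF-1α knockdown arrays were above all others, and the wild type and HIF-2α knockdown arrays overlapped. C1S was 1.29-fold higher in HIF-1α knockdown than in wild type (log2 difference 0.36, SE 0.07, limma adjusted p = 0.0192). It was 1.34-fold lower in HIF-2α than in HIF-1α knockdown (log2 difference -0.42, SE 0.07, limma adjusted p = 0.00353), and -0.05 in HIF-2α knockdown against wild type was not called (adjusted p = 0.818). The call against wild type was lost with each array centred on its median (0.35, adjusted p = 0.0555) and without the 3 high-floor arrays (0.32, adjusted p = 0.204). It was also lost without wild type replicate 1 (adjusted p = 0.0666) or 2 (0.0572), or without HIF-1α knockdown replicate 2 (0.0759) or 3 (0.059). The call between the knockdowns held with any 1 array left out, at adjusted p from 0.00331 to 0.0151.

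C6 encodes a component of the membrane attack complex. It read 6.86, 6.84, 6.62 and 6.57 on the wild type arrays, 6.65, 6.62, 6.62 and 6.70 in HIF-1α knockdown and 6.98, 7.06, 6.92 and 7.13 in HIF-2α knockdown. The HIF-2α knockdown arrays were the highest 4, although the whole range is low on these arrays, where 25% of genes average below 6.93. C6 was higher in HIF-2α than in HIF-1α knockdown by 0.37 (SE 0.07, limma adjusted p = 0.0143) and differed from wild type by 0.30 (SE 0.07, adjusted p = 0.0815). After quantile normalization the difference from wild type was called, at 0.32 (adjusted p = 0.0159), as it was without the high-floor arrays (0.39, adjusted p = 0.047) and with the trended robust variance (0.00835). The 2 higher wild type values are those of the high-floor arrays. The call between the knockdowns was lost without HIF-1α knockdown replicate 2 (adjusted p = 0.0502) or 3 (0.0567) or HIF-2α knockdown replicate 4 (0.0529).

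Of the regulators, SERPING1, the inhibitor of C1 and of the contact proteases, read 7.03, 7.06, 7.02 and 6.92 on the wild type arrays, 7.40, 7.25, 7.25 and 7.18 in HIF-1α knockdown and 7.19, 7.21, 7.07 and 7.07 in HIF-2α knockdown. Both knockdowns lay above every wild type array, yet neither difference was called: 0.26 (SE 0.06, limma adjusted p = 0.0604) and 0.13 (SE 0.06, adjusted p = 0.424). The first was called without HIF-2α knockdown replicate 2 (adjusted p = 0.049) and with the trended robust variance (0.0111). C3, the central component, read 13.41, 13.16, 13.27 and 13.08 in wild type against 12.75, 12.75, 12.93 and 12.68 with HIF-1α knockdown, a difference of -0.45 (SE 0.14, adjusted p = 0.161, and 0.0213 in a fit of the 2 groups alone). In HIF-2α knockdown C3 read 12.78, 13.41, 12.81 and 13.48, with replicates 2 and 4 at the wild type level. C1R, the protease that activates C1S, was not called and averaged 7.45 in wild type, 7.48 in HIF-1α knockdown and 7.34 in HIF-2α knockdown. The terminal components C8A, C8B and C9 and the proteases MASP1, CFB and CFI had differences from wild type between -0.20 and 0.10, with no call. Between the knockdowns C8A differed by 0.21 (SE 0.06, limma adjusted p = 0.0848) and CFI by 0.28 (adjusted p = 0.158), and both were called after quantile normalization, at 0.22 (0.0401) and 0.30 (0.0257). C8A was also called with the trended robust variance (0.0414). C5, whose cleavage starts the terminal pathway, differed by -0.31 in HIF-1α and -0.19 in HIF-2α knockdown, also with no call. The 3 probe sets of CFB disagreed in sign, at -0.15 for the one used and -0.23 and 0.06 for the others in HIF-1α knockdown.

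Of the coagulation and contact factors, F11 was the one gene called. It encodes factor XI, the zymogen that factor XIIa or thrombin activates in the intrinsic pathway. F11 read 9.32, 9.11, 9.30 and 9.05 on the wild type arrays, 9.19, 9.25, 9.05 and 9.10 in HIF-1α knockdown and 9.62, 9.77, 9.47 and 9.55 in HIF-2α knockdown. Every HIF-2α knockdown array was above every other array, and the other 2 groups overlapped. F11 was 1.32-fold higher in HIF-2α knockdown than in wild type (log2 difference 0.40, SE 0.08, limma adjusted p = 0.0318) and 1.37-fold higher than in HIF-1α knockdown (0.45, SE 0.08, limma adjusted p = 0.00796). The call between the knockdowns held with any 1 array left out, at adjusted p from 0.00778 to 0.0387. The call against wild type was lost after quantile normalization (0.33, adjusted p = 0.0624), with each array centred on its median (0.41, 0.095), in a fit of the 2 groups alone (0.40, 0.109) and without the high-floor arrays (0.44, 0.159). It was also lost without wild type replicate 2 (adjusted p = 0.0838) or 4 (0.0977), or HIF-2α knockdown replicate 1 (0.0896), 2 (0.0778) or 4 (0.0554).

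KNG1 encodes kininogen, the cofactor of the contact system from which bradykinin is released. It read 7.92, 8.0, 8.20 and 7.74 on the wild type arrays, 8.32, 8.45, 8.51 and 8.26 in HIF-1α knockdown and 8.26, 8.51, 8.23 and 8.20 in HIF-2α knockdown. The HIF-1α knockdown arrays were all above wild type, and the lowest HIF-2α knockdown array met the highest wild type array at 8.20. The differences of 0.42 (SE 0.10, limma adjusted p = 0.063) and 0.34 (SE 0.10, adjusted p = 0.14) were not called. Without wild type replicate 3, the highest wild type array, both were called, at 0.50 (adjusted p = 0.0178) and 0.41 (0.0482). The first was also called without HIF-2α knockdown replicate 2 (adjusted p = 0.039) and with the trended robust variance (0.0173).

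None of the members that act in the extrinsic and common pathways was called. F7, the factor that pairs with tissue factor, read 8.25, 8.31, 8.48 and 8.43 on the wild type arrays, 8.64, 8.57, 8.57 and 8.40 in HIF-1α knockdown and 8.40, 8.26, 8.45 and 8.29 in HIF-2α knockdown. Its groups overlapped, and the difference of 0.18 in HIF-1α knockdown was not called (SE 0.07, limma adjusted p = 0.272). F10, whose active form cleaves prothrombin, was 0.30 higher in HIF-1α knockdown (SE 0.13, not called, adjusted p = 0.313) and averaged 9.71 in both wild type and HIF-2α knockdown. F5, the cofactor of factor Xa, had the highest signal of this role group and read 10.41, 10.33, 10.60 and 10.46 on the wild type arrays, 10.56, 10.63, 10.68 and 10.66 in HIF-1α knockdown and 10.37, 10.82, 10.29 and 10.42 in HIF-2α knockdown. Its difference in HIF-1α knockdown was 0.18 (SE 0.10, adjusted p = 0.487). F2, the prothrombin gene, differed by -0.20 and -0.17. F12 and KLKB1, factor XII and prekallikrein, the other proteases of the contact system, differed from wild type by 0.13 at most in either knockdown. F9 averaged 6.43 and F13B 6.58, both near the floor of the arrays, where a low level cannot be told from no signal.

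**Figure D2:**
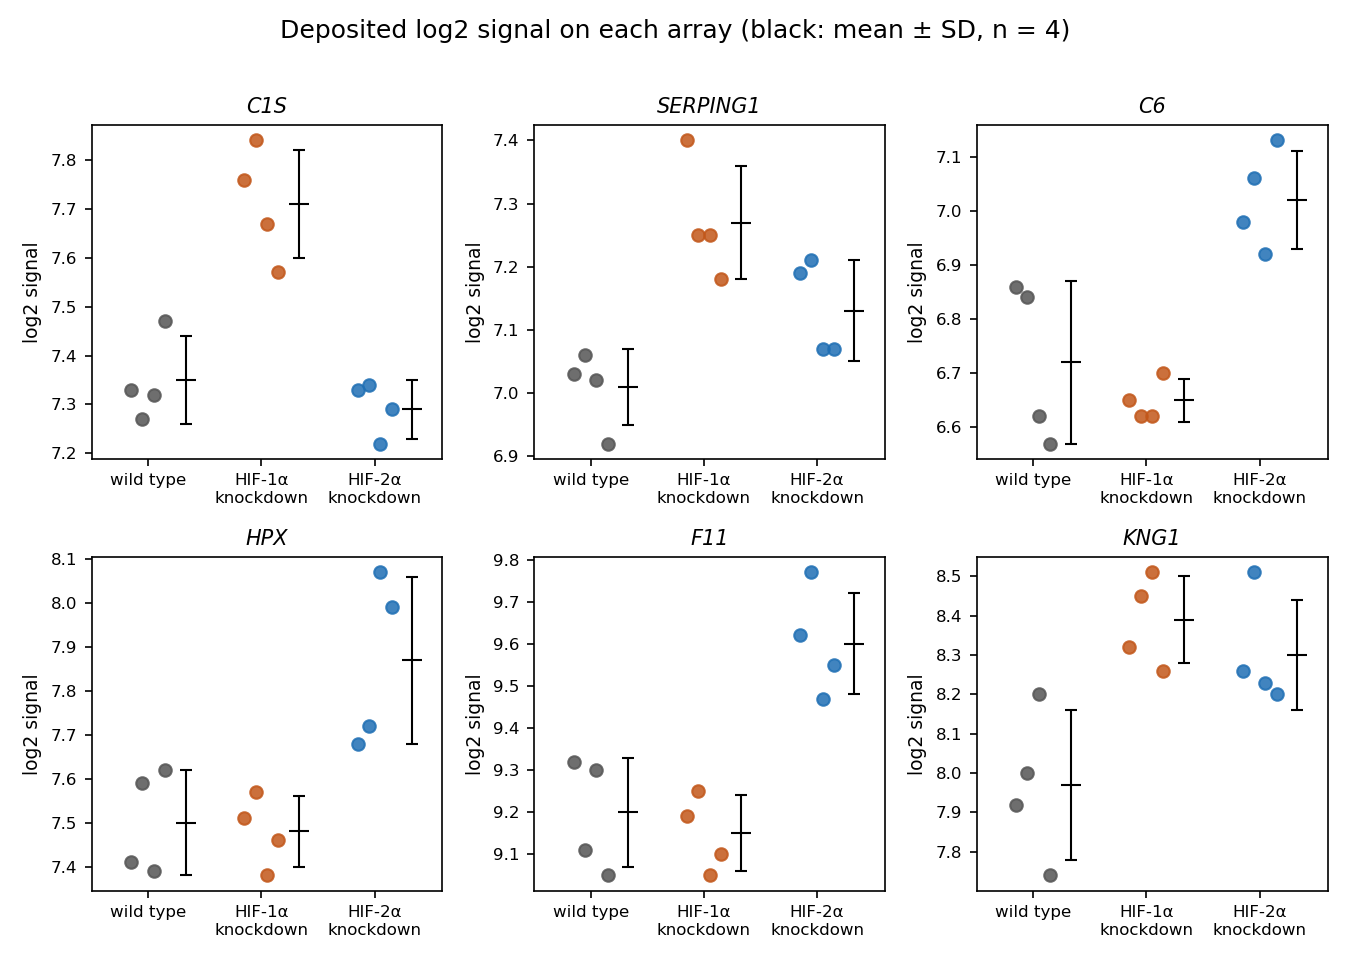
Deposited log2 signal of 6 members on each of the 12 arrays (points), with mean ± SD of the 4 arrays of a group in black. The 4 HIF-1α knockdown arrays of C1S (7.57 to 7.84) and the 4 HIF-2α knockdown arrays of F11 (9.47 to 9.77) lie above all others, while the SERPING1 and KNG1 differences were not called.

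Among the anticoagulants and fibrinolysis genes 0 of 8 were called in any comparison (limma), and at an unadjusted p below 0.05 there was 1, PLG, which was higher in HIF-2α knockdown, where 8.16% of all genes were. SERPINC1, which encodes antithrombin, read 11.21, 10.96, 11.67 and 11.04 on the wild type arrays, 11.50, 11.59, 11.65 and 11.01 in HIF-1α knockdown and 11.58, 12.01, 11.47 and 11.33 in HIF-2α knockdown. The groups overlapped, and the difference of 0.37 in HIF-2α knockdown was not called (SE 0.18, adjusted p = 0.435). SERPIND1, heparin cofactor II, had the highest signal of this role group and read 12.54, 12.40, 12.89 and 12.40 on the wild type arrays, 12.37, 12.40, 12.59 and 12.29 in HIF-1α knockdown and 12.38, 12.90, 12.47 and 12.57 in HIF-2α knockdown. It differed by -0.14 and 0.02 from wild type. After quantile normalization the first turned to 0.12 (SE 0.05, limma adjusted p = 0.274), with every HIF-1α knockdown array above wild type. PROS1, the cofactor of activated protein C, read 10.36, 10.59, 10.75 and 10.67 on the wild type arrays, 10.26, 10.63, 10.55 and 10.60 in HIF-1α knockdown and 10.29, 10.71, 10.26 and 10.44 in HIF-2α knockdown. The probe set of PROS1 used here differed by -0.08 in HIF-1α knockdown, but its second, dimmer probe set by 0.35, so the 2 disagree in sign. PLG, the precursor of plasmin, read 6.75, 6.67, 6.77 and 6.76 on the wild type arrays, 6.81, 6.74, 6.74 and 6.80 in HIF-1α knockdown and 6.94, 6.79, 6.94 and 6.81 in HIF-2α knockdown. Its HIF-2α knockdown arrays were all above wild type, but the difference of 0.13 was not called (SE 0.05, adjusted p = 0.317). PLG averaged 6.79, in the lowest 25% of genes, and these arrays overlapped wild type after quantile normalization. PROC (protein C), SERPINF2 (the plasmin inhibitor), VTN (vitronectin) and HRG (histidine-rich glycoprotein) differed from wild type by between -0.14 and 0.12.

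Among the carriers, HPX, which binds free haem, was higher in HIF-2α than in HIF-1α knockdown. HPX read 7.41, 7.59, 7.39 and 7.62 on the wild type arrays, 7.51, 7.57, 7.38 and 7.46 in HIF-1α knockdown and 7.68, 7.72, 8.07 and 7.99 in HIF-2α knockdown. The HIF-2α knockdown arrays were the highest 4 of the 12. The difference between the knockdowns was 0.39 (SE 0.09, limma adjusted p = 0.0368), and that from wild type 0.36 (SE 0.09, adjusted p = 0.0898, and 0.017 with the trended robust variance). The call between the knockdowns was lost in a fit of the 2 groups alone (adjusted p = 0.0602) and without the high-floor arrays (0.35, adjusted p = 0.188). It was also lost with 7 of the 12 single arrays left out, namely wild type replicate 1 (adjusted p = 0.0505), HIF-1α knockdown replicates 1 to 4 (0.0719, 0.0602, 0.135 and 0.0935) and HIF-2α knockdown replicates 3 (0.0937) and 4 (0.124).

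HP, haptoglobin, which binds free haemoglobin, had the largest positive difference of any member in HIF-1α knockdown. It read 9.73, 9.67, 10.82 and 10.09 on the wild type arrays, 10.69, 10.81, 10.92 and 10.35 in HIF-1α knockdown and 9.92, 10.03, 10.21 and 10.07 in HIF-2α knockdown. Wild type replicate 3 lay among the HIF-1α knockdown arrays, and the difference of 0.61 was not called (SE 0.20, limma adjusted p = 0.171). Without that array it was 0.86 (adjusted p = 0.00731). Against HIF-1α knockdown, HP in HIF-2α knockdown differed by -0.63 (SE 0.20, adjusted p = 0.139), with no overlap of arrays, and without wild type replicate 3 this was called as well (adjusted p = 0.0132). In a fit of the 2 knockdowns alone it was also called (adjusted p = 0.0213). HP has a close paralogue, HPR, so its probe set may read both.

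Of the 5 members in the role group of acute phase reactants, 0 were called in any comparison, and 0 had an unadjusted p below 0.05 (limma). This is not a count of all acute phase proteins. HP, HPX, C3, SERPINA1 and SERPINA3 were placed in other role groups, and of these HPX was called between the knockdowns. CRP (C-reactive protein), SAA1 and LBP (lipopolysaccharide-binding protein) averaged 6.67, 6.52 and 6.93, in the lowest 25% of genes. SAA1, serum amyloid A, read 6.67, 6.76, 6.48 and 6.37 on the wild type arrays, 6.49, 6.54, 6.37 and 6.54 in HIF-1α knockdown and 6.49, 6.41, 6.44 and 6.63 in HIF-2α knockdown, and its 3 highest values are those of the 3 high-floor arrays. ORM1, orosomucoid, read 11.03, 10.87, 10.87 and 10.70 on the wild type arrays, 10.62, 10.53, 10.82 and 10.74 in HIF-1α knockdown and 10.37, 11.46, 11.02 and 11.37 in HIF-2α knockdown. Its HIF-2α knockdown arrays spanned the widest range, with the differences of -0.19 and 0.19 not called. The difference between the knockdowns, 0.38 (limma adjusted p = 0.393), was called without HIF-2α knockdown replicate 1, the lowest array, at 0.60 (SE 0.11, adjusted p = 0.0103). AHSG, fetuin-A, a reactant that falls in the acute phase, read 12.85, 12.56, 13.36 and 12.90 on the wild type arrays, 12.61, 12.67, 12.96 and 12.53 in HIF-1α knockdown and 12.45, 12.96, 12.58 and 12.83 in HIF-2α knockdown. It differed by -0.22 and -0.21 (SE 0.15 in both). After quantile normalization the first turned to 0.10 (SE 0.07), and AHSG between the knockdowns went from 0.01 to -0.26 (SE 0.07, limma adjusted p = 0.0584), with no overlap of arrays. ORM1 and SAA1 have the close paralogues ORM2 and SAA2.

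The members with the highest signals read lower in HIF-1α knockdown on the deposited scale. ALB, serum albumin, read 14.07, 13.88, 14.09 and 13.67 on the wild type arrays, 13.10, 13.23, 13.31 and 13.11 in HIF-1α knockdown and 13.42, 14.22, 13.36 and 14.27 in HIF-2α knockdown. The HIF-1α knockdown arrays were all lower than the rest, and HIF-2α knockdown replicates 2 and 4 were as high as wild type while replicates 1 and 3 were close to HIF-1α knockdown. The ALB difference in HIF-1α knockdown was -0.74 (SE 0.19, limma adjusted p = 0.0822), which was called among the genes above the median level only (adjusted p = 0.0494) and in a fit of the 2 groups alone (0.00612). A2M, a broad protease inhibitor, read 14.01, 13.66, 14.04 and 13.49 in wild type against 13.14, 13.18, 13.43 and 13.11 with HIF-1α knockdown, a difference of -0.58 (SE 0.17, adjusted p = 0.121, and 0.0412 in a fit of the 2 groups alone). In HIF-2α knockdown A2M read 13.32, 13.98, 13.36 and 14.01. ITIH2, a heavy chain of inter-alpha-trypsin inhibitor, which is transferred to hyaluronan, read 13.66, 13.39, 13.92 and 13.30 on the wild type arrays, 13.07, 13.17, 13.38 and 12.97 in HIF-1α knockdown and 13.27, 13.93, 13.28 and 13.91 in HIF-2α knockdown, with a difference of -0.42 in HIF-1α knockdown (SE 0.17, adjusted p = 0.299). In each of these genes HIF-2α knockdown replicates 2 and 4 stood above replicates 1 and 3.

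**Figure D3:**
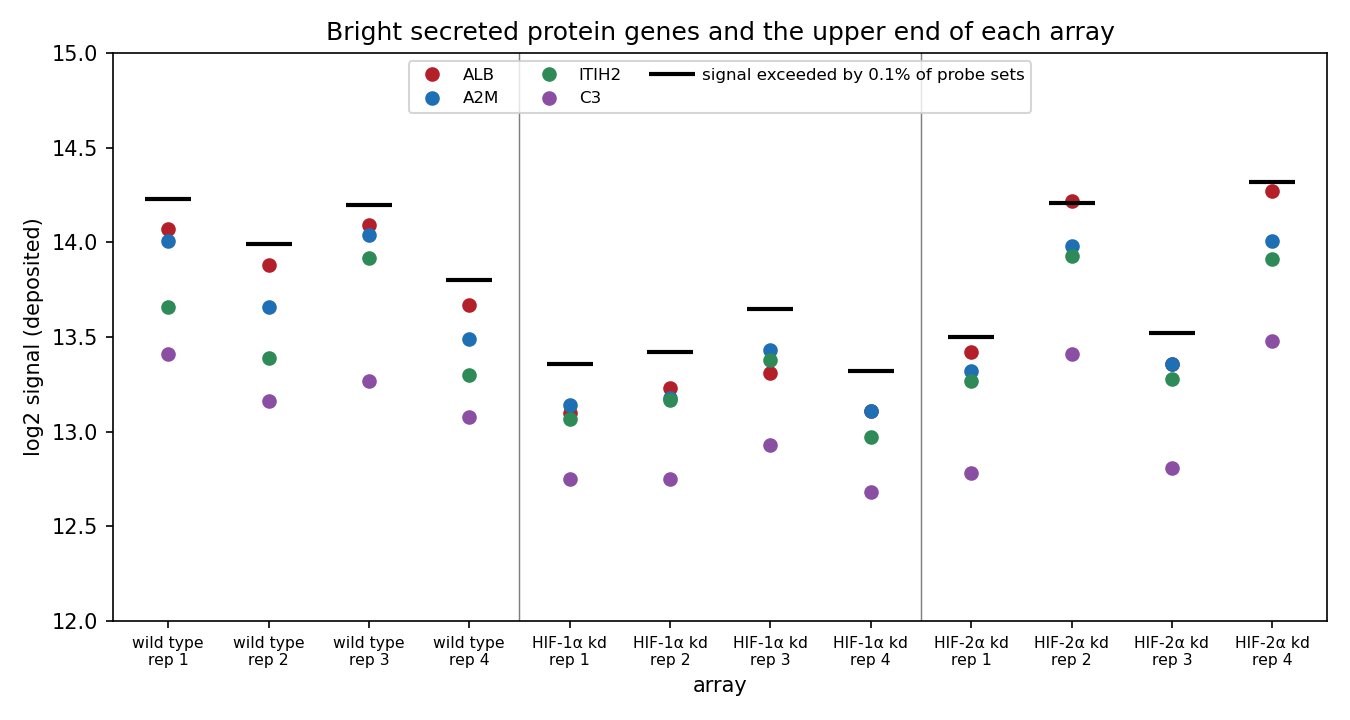
Deposited log2 signal of ALB, A2M, ITIH2 and C3 (points) on each of the 12 arrays, with the signal exceeded by 0.1% of the array's probe sets as a black dash. The 4 genes follow the dash, which is lowest in HIF-1α knockdown (13.32 to 13.65) and in HIF-2α knockdown replicates 1 and 3 (13.50 and 13.52).

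These differences moved with the upper ends of the arrays. The 9 members with a mean log2 signal of 12 or more, A2M, AHSG, ALB, AMBP, C3, ITIH2, RBP4, SERPIND1 and SERPINF1, had a median difference of -0.25 in HIF-1α knockdown, 8 of 9 negative. All 221 genes in that range of signal also had a median of -0.25. A list of 38 ribosomal protein genes had a median of -0.43 with 37 negative and 1 called, RPL11 (-0.78, limma adjusted p = 0.0368), a call lost with 7 of the 12 arrays left out in turn (adjusted p up to 0.129). Their mean was 12.03 to 12.58 per array in wild type, 11.75 to 12.07 in HIF-1α knockdown and 11.88 to 12.43 in HIF-2α knockdown. After quantile normalization the 9 members had a median of 0.08 with 4 of 9 negative, and the 221 genes 0.06. A2M then differed by -0.03, C3 by -0.04 and ITIH2 by 0.08, a change of sign. RBP4, the retinol carrier, went from -0.25 to 0.23. SERPINF1, pigment epithelium-derived factor, went from 0.15 (adjusted p = 0.683) to 0.37 (SE 0.07, limma adjusted p = 0.0331) and was called on that scale alone. It then read 12.08 to 12.27 in wild type and 12.42 to 12.67 in HIF-1α knockdown. ALB stayed lower, at -0.18 (SE 0.05, adjusted p = 0.116), with 13.66 to 13.68 in wild type, 13.37 to 13.56 in HIF-1α knockdown and 13.61 to 13.80 in HIF-2α knockdown. On that scale ALB was called between the knockdowns, at 0.22 (SE 0.05, limma adjusted p = 0.0257), against 0.63 (SE 0.19, adjusted p = 0.104) on the deposited scale. The latter was called without HIF-2α knockdown replicate 1 (0.76, adjusted p = 0.0398) or 3 (0.78, 0.0386). Between the knockdowns the 9 members had a median of 0.24 as deposited, all positive, and 0.03 after quantile normalization. Quantile normalization sets the upper ends of all arrays equal, so a median near 0 for the brightest genes follows from the method. It therefore cannot tell a difference in array scaling from one between the genotypes, and the source of these differences was not tested.

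**Figure D4:**
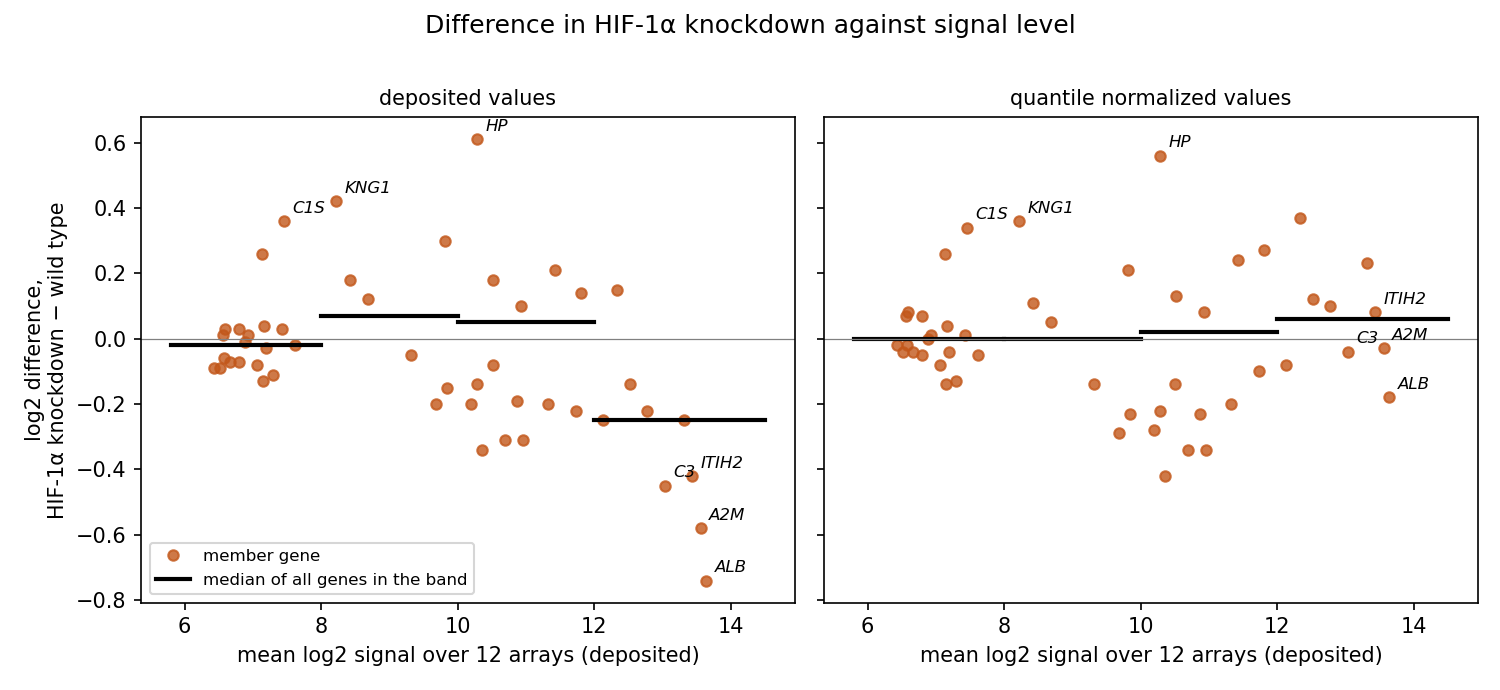
Log2 difference of HIF-1α knockdown from wild type against mean log2 signal over the 12 arrays, for the deposited values and after quantile normalization; points are the 49 members and black lines the median of all genes in each range of signal. Above a signal of 12 the median of the members and the line both lie below 0 on the deposited scale (-0.25 for each) and not after quantile normalization (0.08 and 0.06). Quantile normalization gives every array the same upper end, so a line near 0 there follows from the method.

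SERPINA1, alpha-1-antitrypsin, had a lower value under either scaling. It read between 10.97 and 11.36 on the 4 wild type arrays, 10.89, 10.78, 10.94 and 10.60 in HIF-1α knockdown and 10.72, 11.09, 10.81 and 11.26 in HIF-2α knockdown. The HIF-1α knockdown arrays were all below wild type, with a difference of -0.31 as deposited (SE 0.12, limma adjusted p = 0.277) and of -0.34 after quantile normalization (SE 0.10, adjusted p = 0.107), and neither was called. ITIH3, another heavy chain, had a difference of -0.34 (SE 0.14, adjusted p = 0.278) with HIF-1α knockdown and of -0.27 with HIF-2α knockdown (adjusted p = 0.474), with overlap. After quantile normalization ITIH3 differed by -0.42 in HIF-1α knockdown (SE 0.11, limma adjusted p = 0.0776), not called, with every array below wild type. In HIF-2α knockdown it then differed by -0.32 (adjusted p = 0.147), with overlap. SERPINA3 (antichymotrypsin) and ITIH1 (a heavy chain) differed by 0.14 and -0.08 in HIF-1α knockdown, with no call. Of the remaining carriers, TTR (the thyroid hormone carrier transthyretin), AMBP (the precursor of bikunin) and SERPINA6 (the corticosteroid carrier) differed by -0.22, -0.25 and -0.20 in HIF-1α knockdown, with no call, and TTR ranged from 11.46 to 12.70 within wild type alone.

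Other genes of the same systems were taken from separate lists. Of 26 further complement genes, 0 were called in either comparison with wild type (limma). At an unadjusted p below 0.05, 3 were higher in HIF-1α knockdown, 11.54% against 10.3% of all genes. In HIF-2α knockdown 2 were higher, 7.69% against 8.16%, and 1 lower, 3.85% against 3.85%. Between the knockdowns 1 was higher in HIF-2α knockdown at that threshold, 3.85% against 5.19%, and 3 lower, 11.54% against 8.39%. Of the 26, 1 was called lower there, 3.85% against 1.80%: CD55, a membrane regulator that speeds decay of the C3 convertases. CD55 read 8.87, 9.02, 9.24 and 8.78 on the wild type arrays, 9.10, 9.35, 9.37 and 9.21 in HIF-1α knockdown and 8.79, 8.93, 8.58 and 8.78 in HIF-2α knockdown (difference between the knockdowns -0.49, SE 0.10, limma adjusted p = 0.0199). This call was lost without HIF-1α knockdown replicate 2 (adjusted p = 0.0685) or 3 (0.0824), or HIF-2α knockdown replicate 3 (0.0573) or 4 (0.0565). It was also lost with arrays centred on their medians (-0.47, 0.0665) and without the high-floor arrays (-0.49, 0.122).

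Of 14 further clotting genes, 1 rose in HIF-1α knockdown, CPB2, 7.14% against 0.815% of all genes, and 0 fell, against 0.147%. At an unadjusted p below 0.05, 4 were higher, 28.57% against 10.3%, and 0 lower, against 2.98%. CPB2, which encodes the thrombin-activated carboxypeptidase that slows fibrinolysis, read 10.56, 10.40, 10.74 and 10.21 on the wild type arrays, 11.06, 11.23, 11.24 and 11.16 in HIF-1α knockdown and 10.85, 10.98, 10.60 and 10.77 in HIF-2α knockdown. Its HIF-1α knockdown arrays were the highest 4, with a difference of 0.69 (SE 0.10, limma adjusted p = 0.00763), and the adjusted p without the high-floor arrays was 0.151. In HIF-2α knockdown 0 of the 14 were called (limma), with 1 higher at an unadjusted p below 0.05, 7.14% against 8.16% of all genes. Between the knockdowns 1 of the 14 was called lower in HIF-2α knockdown, 7.14% against 1.80% of all genes. At an unadjusted p below 0.05, 3 were lower, 21.43% against 8.39%, and 0 higher, against 5.19%. The gene called was PROZ, a vitamin K-dependent cofactor in the inhibition of factor Xa. It read 7.84, 7.99, 8.34 and 7.93 on the wild type arrays, 8.37, 8.51, 8.56 and 8.21 in HIF-1α knockdown and 7.78, 7.82, 7.98 and 7.60 in HIF-2α knockdown (difference between the knockdowns -0.62, SE 0.11, limma adjusted p = 0.00931; without the high-floor arrays -0.56, 0.0585). Of 5 genes of the vitamin K cycle, which carboxylates several of the clotting factors, 0 were called in any comparison (limma). At an unadjusted p below 0.05 there was 1, between the knockdowns. Of 22 further plasma proteins, 0 were called in any comparison (limma). At an unadjusted p below 0.05, 4 were lower in HIF-1α knockdown, 18.18% against 2.98% of all genes, and 0 higher, against 10.3%. Of these 4, AFP and TF are also in the list of hepatocyte and HepG2 markers and are counted again there. In HIF-2α knockdown 6 were higher, 27.27% against 8.16%, and 2 lower, 9.09% against 3.85%. Between the knockdowns 6 were higher in HIF-2α knockdown, 27.27% against 5.19%, and 1 lower, 4.55% against 8.39%.

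The 3 fibrinogen chains were left out of the list and are given once. FGA, FGB and FGG fell in HIF-1α knockdown, with differences of -1.21, -1.75 and -0.68 (limma adjusted p = 0.000339, 9.03e-06 and 0.0207). In HIF-2α knockdown FGB and FGG rose by 0.63 and 0.60 (adjusted p = 0.0196 and 0.0437) and FGA differed by 0.34 (adjusted p = 0.243). The FGG fall was lost without wild type replicate 1 (adjusted p = 0.0836) or HIF-1α knockdown replicate 2 (0.0744), 3 (0.0659) or 4 (0.0631). FGB in HIF-2α knockdown was lost without wild type replicate 2 (0.0585) or 4 (0.0527), and FGG with 8 of the 12 arrays left out in turn (adjusted p up to 0.13). Without the high-floor arrays the adjusted p was 0.168 for the FGG fall, and 0.208 and 0.271 for FGB and FGG in HIF-2α knockdown.

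In the list of 25 interleukin-6 and acute phase signalling genes, 0 were called in HIF-1α knockdown (limma), with 4 at an unadjusted p below 0.05. In HIF-2α knockdown 6 were higher at that threshold, 24.00% against 8.16%, and 4 lower, 16.00% against 3.85%. There 1 of the 25 was called lower, 4.00% against 0.310%, namely IL6R, which encodes the binding chain of the interleukin-6 receptor. IL6R read 8.58, 8.61, 8.80 and 8.91 on the wild type arrays, 8.47, 8.66, 8.74 and 8.62 in HIF-1α knockdown and 8.23, 8.24, 8.19 and 8.30 in HIF-2α knockdown. All 4 HIF-2α knockdown arrays were below all others, with a difference from wild type of -0.48 (SE 0.08, limma adjusted p = 0.0109) that was called with any 1 array left out. Between the knockdowns 1 of the 25 was higher and 3 lower in HIF-2α knockdown. NFKBIZ, a nuclear regulator of NF-κB targets, differed by 0.34 (limma adjusted p = 0.00466). OSMR, a receptor chain for oncostatin M, differed by -0.47 (adjusted p = 0.00678), IL1R1, the signalling receptor of interleukin-1, by -0.50 (adjusted p = 0.02) and IL6R by -0.38 (adjusted p = 0.0176). The IL1R1 call was lost with arrays centred on their medians (adjusted p = 0.0512) and without HIF-1α knockdown replicate 3 (adjusted p = 0.0822) or 4 (0.0628) or HIF-2α knockdown replicate 3 (0.051), and the IL6R call between the knockdowns without HIF-1α knockdown replicate 2 (0.0573) or 3 (0.075) or HIF-2α knockdown replicate 3 (0.0505). Without the high-floor arrays the adjusted p of OSMR was 0.0602. Of 13 measured hepatocyte transcription factor genes, 0 were called in any comparison (limma). At an unadjusted p below 0.05, 2 were higher in HIF-1α knockdown, 15.38% against 10.3% of all genes. In HIF-2α knockdown 3 were higher, 23.08% against 8.16%, and 1 lower, 7.69% against 3.85%. Between the knockdowns 1 was higher in HIF-2α knockdown, 7.69% against 5.19%, and 2 lower, 15.38% against 8.39%.

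**Figure D5:**
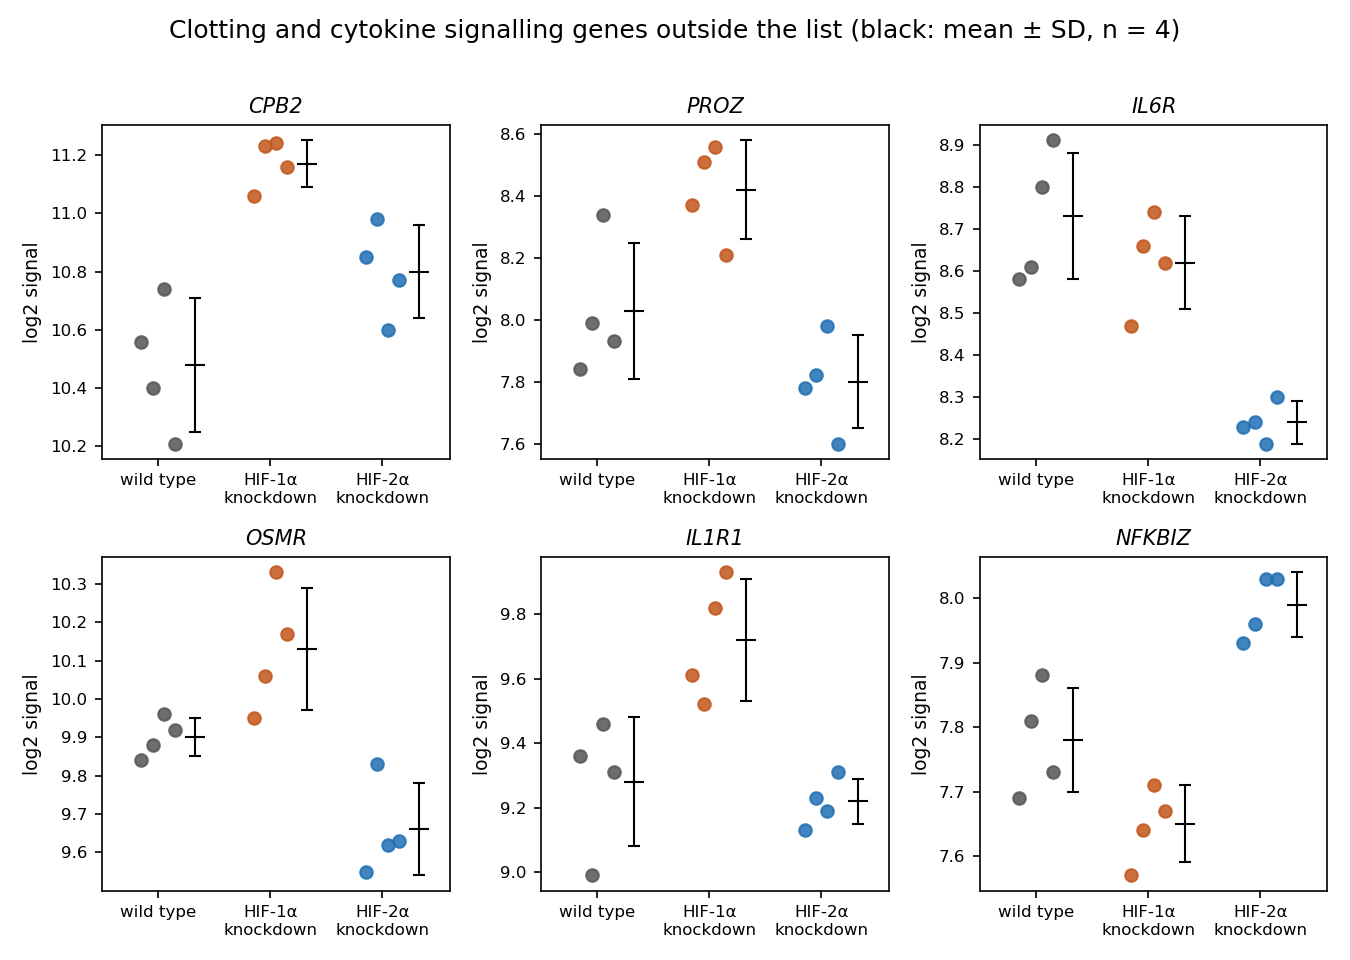
Deposited log2 signal of 6 clotting and cytokine signalling genes outside the list on each of the 12 arrays (points), with mean ± SD of the 4 arrays of a group in black. CPB2 is highest in HIF-1α knockdown (11.06 to 11.24) and IL6R lowest in HIF-2α knockdown (8.19 to 8.30).

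Markers of other cell types were read beside these results, since some of the members are also made outside hepatocytes. The mean of 13 macrophage and leukocyte markers was 7.68 to 7.81 per array in wild type, 7.66 to 7.74 in HIF-1α knockdown and 7.62 to 7.71 in HIF-2α knockdown. The mean of 11 endothelial markers was 7.02 to 7.10, 7.06 to 7.10 and 6.96 to 7.05, and that of 11 stellate and fibroblast markers 7.18 to 7.25, 7.22 to 7.29 and 7.14 to 7.25. The mean of 8 cholangiocyte markers was 9.01 to 9.19, 8.96 to 9.11 and 9.01 to 9.16. In these 4 lists PDGFRB, a stellate cell receptor, was lower in HIF-2α knockdown than in wild type (-0.40, limma adjusted p = 0.0109), and CD14 (-0.39, adjusted p = 0.00899) and PDGFRB (-0.35, adjusted p = 0.0105) were lower in HIF-2α than in HIF-1α knockdown. Without the high-floor arrays the adjusted p was 0.0974 for PDGFRB against wild type, 0.0555 for CD14 and 0.0553 for PDGFRB between the knockdowns. No other marker in them was called. The 8 hepatocyte and HepG2 markers averaged 12.60 to 12.92 in wild type, 12.20 to 12.47 in HIF-1α knockdown and 12.26 to 12.93 in HIF-2α knockdown, with 0 called in any comparison (limma). At an unadjusted p below 0.05, 6 were lower in HIF-1α knockdown, 75.00% against 2.98% of all genes. On every array 5 lay below wild type there, 62.50% against 2.11%. The 6 were APOA2, APOB, APOH, AFP, TF and GPC3, with mean signals from 12.98 to 13.70. All 221 genes with a mean signal of 12 or more had a median of -0.25 in HIF-1α knockdown as deposited. Of the remaining markers, APOA1, at a mean of 11.50, differed by -0.36 and FOXA2, at 8.38, by 0.00. In HIF-2α knockdown 1 of the 8 was lower, where 3.85% of all genes were. Between the knockdowns 4 were higher in HIF-2α knockdown, where 5.19% of all genes were, and 1 lower, where 8.39% were. The part of these marker lists in the members' differences was not tested.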

How the data were processed

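Gene expression in 12 HepG2 spheroid samples, 4 per genotype, was measured on Affymetrix arrays. The log2 values deposited by the authors were used as given. The log base was inferred from their range. Not given in the sources used here: background correction, summarization, normalization.

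Of 32321 probe sets, 19158 carry 1 gene symbol in the platform annotation, 1388 several and 11775 none. Symbols were updated through Entrez identifiers in RefSeq (19128 matched that way, 4 by symbol, 26 kept). The brightest probe set stood for each of 18404 genes. limma 3.58.1 (R 4.3.3; lmFit, eBayes) compared the groups with 1 mean per group over all 12 arrays. Adjusted p is Benjamini-Hochberg over 18404 genes, called below 0.05, two-sided, with no filter and no fold threshold. SE is the moderated standard error. A p-value reflects only the spread between these spheroid experiments, and precision is limited by having 4 arrays a group.

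The members and gene lists were chosen with earlier results of these data known. Array values are given for members called in any comparison and, in each role group, for the 3 with the smallest unadjusted p and for the 1 with the highest mean. Genes of other lists are named where called. Further complement, clotting, plasma protein, vitamin K cycle, interleukin-6 signalling, transcription factor, fibrinogen, ribosomal and cell type marker lists were read.

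In a test on simulated data for HIF-1α knockdown against wild type, over 18404 genes, 46% of 1.25-fold and 86% of 1.5-fold changes were recovered. The share was 52% and 84% for HIF-2α knockdown against wild type, and 68% and 90% between the knockdowns. In the 3 comparisons 9, 11 and 5 unchanged genes were called. The changed genes were drawn from all genes with independent noise, where the median within-group SD was 0.10 against 0.18 for the members. These shares are therefore not the recovery for the members, which was not tested. Alternatives were quantile normalization, centring each array on its median, a level filter, the mean of a gene's probe sets, a trended robust variance, a fit of the 2 groups alone, a replicate block, leaving out the 3 high-floor arrays and leaving out each array. Of the planned promoter motifs, 1 is not reported here.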

Additional observations from a re-analysis of the deposited data

Results flagged for a closer look

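One member array stood apart from its group. PLG read 6.67 on wild type replicate 2, against 6.75 to 6.77 on the other 3 arrays of the group. It was 1 of 102 groups of 4 arrays examined, and chance marks about 1 in 20 groups.

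The effects of the 2 knockdowns differed from each other, by the test between them, for 4 members. The difference, HIF-2α minus HIF-1α knockdown on the log2 scale, was 0.39 for HPX (limma adjusted p = 0.0368), -0.42 for C1S (0.00353), 0.37 for C6 (0.0143) and 0.45 for F11 (0.00796).

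It was also found outside the members for the fibrinogen chains FGA (1.55, limma adjusted p = 1.68e-05), FGB (2.38, 1.66e-07) and FGG (1.27, 0.000107). The cytokine signalling genes were IL1R1 (-0.50, limma adjusted p = 0.02), IL6R (-0.38, 0.0176), NFKBIZ (0.34, 0.00466) and OSMR (-0.47, 0.00678). The remaining genes were CD14 (-0.39, limma adjusted p = 0.00899), CD55 (-0.49, 0.0199), PDGFRB (-0.35, 0.0105), PROZ (-0.62, 0.00931) and RPL11, a ribosomal protein gene (0.76, 0.0206).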

How the results depend on the processing

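The 58 differences of named genes with an unadjusted p below 0.05 had 1147 alternative values, of which 1025 kept direction and side of the threshold, 83 lost a call, 38 gained one and 1 reversed, ITIH2 in HIF-1α knockdown, at 0.08 after quantile normalization. Over all 49 members, whatever their p, quantile normalization changed the sign of 4 differences in HIF-1α knockdown (RBP4, AHSG, SERPIND1 and ITIH2), 5 in HIF-2α knockdown (ALB, RBP4, F5, A2M and ITIH1) and 6 between the knockdowns (RBP4, SAA1, AHSG, SERPIND1, HRG and SERPINF1). In HIF-1α knockdown against wild type, 177 genes were called; the count was 85 with centred arrays, 288 with the trended robust variance, 396 with the 2 groups alone and 22 without the high-floor arrays. Members called higher were 2 with quantile normalization, 3 with the trended robust variance and 3 with the replicate block, and 0 with centred arrays, above the median level and without the high-floor arrays. Members called lower were 1 above the median level and 3 with the 2 groups alone.

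In HIF-2α knockdown against wild type, 145 genes were called, and 404 with quantile normalization, 72 with centred arrays, 285 with the trended robust variance, 64 with the 2 groups alone and 37 without the high-floor arrays. Members called higher were 0 with centred arrays, 3 with the trended robust variance and 0 with the 2 groups alone. Between the knockdowns, 509 genes were called, and 888 with quantile normalization, 337 with centred arrays and 259 without the high-floor arrays. Members called higher were 6 with quantile normalization and 1 above the median level, and lower 0 above the median level and 2 with the 2 groups alone. The cause of these shifts was not tested, except that C1S, HPX and C6 lie below the median level and leave that test.

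The split of genes called higher and lower was 150 and 27, 88 and 57, and 178 and 331 in the 3 comparisons. It was 140 and 114, 141 and 263, and 342 and 546 with quantile normalization, and 67 and 18, 34 and 38, and 133 and 204 with centred arrays.

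Leaving out each array in turn gave 50 to 483, 61 to 219 and 211 to 618 genes called, the lowest without HIF-1α knockdown replicate 3, wild type replicate 4 and HIF-1α knockdown replicate 3, and the highest without wild type replicate 3, wild type replicate 3 and HIF-2α knockdown replicate 1. Members called higher ranged from 0 to 3, 0 to 2 and 1 to 5, and lower 0, 0 and 1 to 2. Member medians ranged from -0.09 to -0.03, -0.04 to 0.03 and 0.03 to 0.10.

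Same-numbered arrays did not pair: their deviations correlated between -0.17 and 0.64, and 3 of 12 arrays correlated best with their own number. With the replicate block 234, 202 and 562 genes were called, with 3, 1 and 3 members higher and 0, 0 and 1 lower. The block added KNG1 (0.42, limma adjusted p = 0.0264) and SERPING1 (0.26, 0.0478) in HIF-1α knockdown and changed no other member's call. Without it the counts are those above.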
